A study of Homo sapiens with 6 samples.

Results

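The genes described here were the 10 genes NT5E, ENTPD1, ENTPD2, ADA, ADK, ADORA1, ADORA2A, ADORA2B, SLC29A1 and DPP4, which make, sense and remove adenosine outside the cell, out of 58735 genes in the count table. They were taken by gene symbol, and each symbol matched 1 row of the table. NT5E was selected on its log2 fold change between the knockdown and control libraries described here, and the others were taken as its pathway partners, so their differences between the groups are given as a description with no test. The RNA-seq data cover 3 control libraries and 3 from cells in which shRNA stably lowered CNOT7, a deadenylase of the CCR4-NOT complex that shortens the poly(A) tails of mRNAs. All 6 libraries came from a human colorectal cancer cell line without treatment. The labels name SW480 for all of them, while the study's text names HCT116 for its RNA sequencing. The labels do not state which shRNA the knockdown libraries carried, whether the cells were 1 clone, or whether the 3 libraries of a group came from separate cultures, so the p-values measure only the spread between these libraries.

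ATP released from cells is cut at the cell surface to ADP and AMP by the ectonucleoside triphosphate diphosphohydrolases (NTPDases), among them ENTPD1 (CD39) and ENTPD2. NT5E (CD73), an enzyme held in the membrane by a lipid anchor, removes the last phosphate of AMP and so makes adenosine. Adenosine acts on G protein-coupled receptors, of which ADORA2A and ADORA2B raise cyclic AMP and ADORA1 lowers it. It is cleared by uptake through the equilibrative transporter SLC29A1, by deamination to inosine by ADA, and by phosphorylation back to AMP by ADK inside the cell. DPP4 (CD26), a surface peptidase, binds ADA and holds it at the membrane. In tumours this pathway is known for damping immune cells, and in the intestine ADORA2B is the receptor usually described in the epithelium.

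The counts are of reads or fragments per gene, and the library totals ranged from 23788451 to 29104872. Levels are given as CPM, counts scaled to the size of the library, after TMM normalization, which corrects for differences in RNA composition. Fold changes are knockdown over control on the log2 scale, with the standard error (SE) from edgeR's quasi-likelihood fit across the 17574 genes that passed its filter on low counts. A gene was called when its Benjamini-Hochberg adjusted p was under 0.05. CNOT7 itself stood at 169.1, 191.1 and 175.8 CPM in the control libraries and at 43.4, 47.2 and 38.6 CPM in the knockdown libraries, so every library matched its label (log2 fold change -2.05, SE 0.0734, adjusted p = 2.64e-12 from edgeR). Of 10 epithelial and colorectal markers, 7 passed the filter, and their list summed to 5554 to 5972 CPM in the control and 5133 to 5684 CPM in the knockdown libraries, while KRT20, CDX1 and LGALS4 were near 0 in both groups. Within that list VIL1 (log2 fold change 0.72, SE 0.0955) and CDH1 (0.51, SE 0.0794) were called higher, and KRT8 and KRT19 were called lower. The summed fibroblast markers reached at most 9.85 CPM, the endothelial markers 3.48 CPM and the immune markers 4.43 CPM in any library. COL3A1 and DCN were at 0 throughout. Their part in the results below was not tested.

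Of the 10 members, 8 passed the filter on low counts, and ADORA2A and DPP4 did not. Among the 8, the 2 genes past the threshold of the fit were NT5E, which was lower, and ENTPD2, which was higher, or 25% of them beside 25.2% of all tested genes. The groups did not overlap for 3 of the 8, NT5E, ENTPD2 and ADA, or 37.5% beside 38.8% of all tested genes. Nothing is read from these shares, since the genes were chosen with this comparison known.

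The 2 members that differed most between the groups among those tested, NT5E and ENTPD2, are shown with the 250 bases before their RefSeq start sites, on GRCh38.p14, so that the short binding-site words searched in them can be seen. Capitals mark the words TGACG (the short form of the cyclic AMP response element), GGGCGG (SP1) and TGANTCA (AP-1) on either strand. The NT5E stretch is chr6:85449833-85450082 on the forward strand. It lies inside the gene as the count table places it (chromosome 6, 85449584 to 85495791), since the annotation behind the counts starts the gene further upstream. The ENTPD2 stretch is chr9:137054062-137054311 on the reverse strand.
NT5E: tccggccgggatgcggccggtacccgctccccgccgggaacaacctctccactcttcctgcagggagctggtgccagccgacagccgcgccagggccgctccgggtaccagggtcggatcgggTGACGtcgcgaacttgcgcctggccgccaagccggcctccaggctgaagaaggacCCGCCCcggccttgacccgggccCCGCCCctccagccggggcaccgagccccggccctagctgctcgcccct
ENTPD2: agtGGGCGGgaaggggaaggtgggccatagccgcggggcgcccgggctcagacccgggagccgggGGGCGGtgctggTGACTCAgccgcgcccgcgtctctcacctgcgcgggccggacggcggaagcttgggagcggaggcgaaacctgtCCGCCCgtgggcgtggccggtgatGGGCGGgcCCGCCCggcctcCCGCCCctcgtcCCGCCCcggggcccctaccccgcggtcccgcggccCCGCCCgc
Both stretches were rich in G and C, 75.2% of the bases for NT5E and 80.8% for ENTPD2, beside a median of 58.0% over 35116 promoter windows. NT5E held 1 TGACG word, which starts 127 bases before the start site, and 2 GGGCGG words, whose first bases lie 72 and 49 bases before it. ENTPD2 held 8 GGGCGG words and 1 TGANTCA word, 173 bases before its start.

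The same words were searched on both strands of the RefSeq windows from 250 bases before to 50 bases after a start site, of which 15 belong to 9 of the members. ADORA2A had no entry. GGGCGG was found in 10 of the 15 windows, from 8 members, and in 45.0% of all windows. TGACG was found in 6 windows, from NT5E, ENTPD1, ADK, ADORA2B and DPP4, and in 24.6% of all windows. The full cyclic AMP response element TGACGTCA, which holds TGACG, was in none of the 15 and in 1.85% of all windows. CATTCC, the word bound by TEAD factors, was found in 1 ADK window alone and in 14% of all windows. The hypoxia response word ACGTG was found in the DPP4 window and 1 SLC29A1 window (21.4% of all windows), TGANTCA in ENTPD2 alone (7.71%), and TCAAAG, the TCF/LEF word, in 2 ENTPD1 windows (12.9%). A match is a run of letters in these windows and was not tested as a binding site.

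NT5E (ENSG00000135318), the enzyme that makes adenosine from AMP, was lower in every knockdown library. It stood at 78.3, 89.0 and 81.9 CPM in control replicates 1, 2 and 3 and at 28.4, 29.5 and 28.5 CPM in knockdown replicates 1, 2 and 3. The lowest control library was above the highest knockdown library, and the knockdown libraries lay close together (28.8 ± 0.591 CPM, SD, n = 3, against 83.1 ± 5.46 CPM in the controls). The log2 fold change was -1.53 (SE 0.0682), so that 34.7% of the control level was left. Ordered by log2 fold change, NT5E was gene 45 from the lowest among the 17574 tested. No exonic base of NT5E is shared with another annotated gene. Because whole cultures were sequenced, fewer NT5E-expressing cells and less NT5E RNA per cell cannot be told apart.

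Among the NTPDases that act before NT5E, ENTPD2, which prefers ATP as its substrate, went the other way. Its level was 15.6, 13.2 and 12.1 CPM in the control and 21.6, 19.5 and 22.9 CPM in the knockdown libraries. Every knockdown library was above every control library, with a log2 fold change of 0.64 (SE 0.103). With 1 library left out, it lay between 0.56 and 0.75. ENTPD2 (ENSG00000054179, chromosome 9, 137048098 to 137054045, GRCh38, reverse strand) shares no exonic base with another gene.

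ENTPD1, the NTPDase best known from immune cells and blood vessels, was low and had overlapping groups. It was at 5.64, 6.53 and 6.54 CPM in the control and 7.63, 6.74 and 6.01 CPM in the knockdown libraries, a log2 fold change of 0.12 (SE 0.13). Of its exonic bases, 6.51% lie opposite another gene, and the strand setting of the counting is not given in the sources used here.

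The genes that clear adenosine differed little between the groups. SLC29A1, the transporter through which adenosine enters the cell, was at 85.0, 77.5 and 86.5 CPM in the control and 83.1, 81.6 and 87.8 CPM in the knockdown libraries (log2 fold change 0.02, SE 0.0619). ADK, which returns adenosine to AMP, was at 35.8, 38.3 and 32.1 CPM and at 36.9, 36.4 and 33.4 CPM (log2 fold change 0.01, SE 0.0785). For both genes the ranges of the 2 groups overlapped. ADA, which turns adenosine into inosine, was at 23.9, 23.4 and 22.9 CPM in the control and 28.6, 25.6 and 26.5 CPM in the knockdown libraries. Its groups did not overlap, its log2 fold change was 0.20 (SE 0.0774), and it did not pass the threshold of the fit.

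DPP4, the membrane partner of ADA, was close to the limit of detection. It had 1, 1 and 0 counts in the control and 12, 8 and 10 counts in the knockdown libraries. All knockdown libraries were thus above all control libraries, on a level of at most 0.426 CPM. Over the pooled libraries, 2 counts against 30 gave a ratio of 13. With so few control counts this ratio is imprecise, and it was not tested.

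Of the adenosine receptors, ADORA2B was the one with the highest level and had nearly equal means in both groups. It was at 21.3, 23.4 and 26.4 CPM in the control and 25.8, 22.2 and 23.0 CPM in the knockdown libraries (log2 fold change -0.0021, SE 0.0918). ADORA1, which lowers cyclic AMP, was at 6.07, 4.99 and 6.22 CPM and at 5.18, 5.07 and 5.27 CPM, a log2 fold change of -0.16 (SE 0.134). Its groups overlapped, since control replicate 2 lay below the knockdown libraries. ADORA2A had 4, 0 and 5 counts in the control and 7, 6 and 6 counts in the knockdown libraries, a pooled ratio of 1.83. The knockdown libraries were above the control libraries by 1 count or more, too few counts to read a difference from. It shares 56.8% of its exonic bases with a readthrough gene, so even these counts are uncertain. ADORA3, the remaining adenosine receptor, had 0 counts in all 6 libraries, which allows up to 0.101 to 0.129 CPM in a library (3 counts).

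The order of the members' levels in the control libraries, which the choice of the genes did not use, was compared per kilobase of gene length. SLC29A1 (18.8 ± 1.1 CPM per kilobase, SD, n = 3) and NT5E (18.3 ± 1.2) came first, and their ranges overlapped. ADK (11.1 ± 0.972), ADORA2B (9.29 ± 0.995) and ADA (8.21 ± 0.174) followed, each with a range that overlapped the gene above it except that ADK lay clearly below NT5E. ENTPD2 (5.19 ± 0.674), ADORA1 (1.37 ± 0.161), ENTPD1 (0.895 ± 0.0742) and ADORA2A (0.0282 ± 0.025) each lay below the range of the gene above. DPP4 (0.0055 ± 0.0047) came last, with a range that overlapped that of ADORA2A. In the knockdown libraries NT5E was at 6.36 ± 0.13 CPM per kilobase and took rank 6, below ENTPD2 at 8.1 ± 0.661.

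Of 17 other enzymes listed as splitting nucleotides or related phosphates, 12 passed the filter, 5 rose and 1 fell with CNOT7 knockdown, or 50% called beside 25.2% of all tested genes. By direction, 13.3% of all tested genes were called higher and 11.9% lower. The median log2 fold change of the 12 was 0.41, against 0.0039 over all tested genes. ALPI, ENPP3 and ACPP had at most 9 counts in any control library. They passed the filter only through the knockdown libraries, where they were higher. ALPL, with 11, 15 and 8 counts in the control and 6, 4 and 4 in the knockdown libraries, did not pass. The list was also chosen with earlier results of these data known. Nothing is read from the share or the median. ENTPD8, another surface NTPDase, rose from 43.5, 38.7 and 38.7 CPM to 66.5, 60.4 and 71.0 CPM (log2 fold change 0.71, SE 0.0747, adjusted p = 2.43e-06 from edgeR). ENTPD4, an NTPDase of the Golgi and lysosomes, fell from 130.7, 132.3 and 125.6 CPM to 95.4, 92.4 and 86.1 CPM (log2 fold change -0.50, SE 0.058).

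The largest rises in the list were in genes with few counts. ALPI, the intestinal alkaline phosphatase, which also splits AMP, went from 4, 2 and 8 counts to 43, 37 and 38 counts (log2 fold change 2.84, SE 0.399). ENPP3, a pyrophosphatase that cuts ATP to AMP, went from 3, 6 and 5 counts to 21, 24 and 29 (log2 fold change 2.16, SE 0.42). ENPP1, of the same family, rose by 1.07 (SE 0.27) and the placental alkaline phosphatase ALPP by 0.98 (SE 0.204) on the log2 scale. ENPP1 and ALPP held the call in all 12 alternatives. ALPI and ENPP3 held it in the 11 in which they were tested. They passed the main filter only through the knockdown libraries, so this adds no support. The alternative with a minimum count in all libraries left out ALPI and ENPP3 for their low control counts. It therefore could not test their rises. ALPI and ALPP belong to a cluster of closely similar genes, between which reads can be split wrongly.

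**Figure D1:**
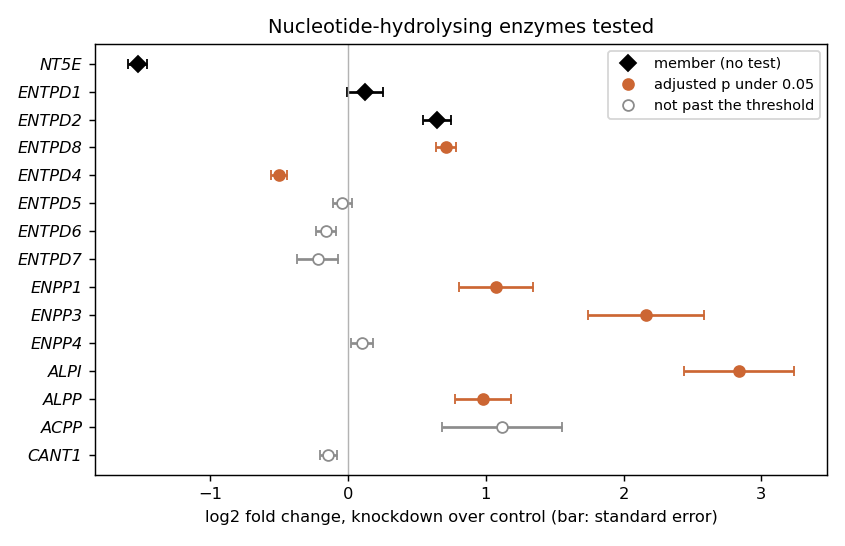
Log2 fold change with its standard error for the 3 members that split nucleotides outside the cell (diamonds, no test) and the 12 tested enzymes of the list (filled circles for adjusted p under 0.05, open circles otherwise). NT5E lies at -1.53, whereas ENTPD2, ENTPD8, ENPP1, ENPP3, ALPI and ALPP lie at 0.64 or above.

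To set the steps side by side, levels per kilobase were summed over the enzymes of each step in every library, a grouping chosen after the values were seen. The NTPDases described as surface enzymes (ENTPD1, ENTPD2, ENTPD3 and ENTPD8) summed to 22.1, 19.6 and 19.2 CPM per kilobase in the control and 32.8, 29.7 and 34.6 in the knockdown libraries. The AMP-splitting enzymes (NT5E, the alkaline phosphatases ALPL, ALPI, ALPP and ALPG, and the acid phosphatase ACPP) summed to 18.2, 20.7 and 18.9 in the control and 8.24, 8.25 and 8.37 in the knockdown libraries. The groups overlapped in neither sum. NT5E, which makes up most of the second sum, was selected on its fall, so that sum largely restates the choice. ENTPD8, the largest part of the first sum (14.2 CPM per kilobase in the control), was named after its value was seen. NT5E made up 95.3 ± 0.4% (SD, n = 3) of the second sum in the control and 76.7 ± 1.88% in the knockdown libraries. Without NT5E that sum was 0.91 ± 0.123 CPM per kilobase in the control and 1.93 ± 0.166 in the knockdown libraries. The ratio of the NTPDase sum to NT5E was 1.11 ± 0.146 in the control and 5.1 ± 0.48 in the knockdown libraries. Its denominator is the gene selected on its fall, so the ratio largely restates that choice. These are ratios of RNA levels, and enzyme activity was not measured here.

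NT5E was then compared with its neighbours on chromosome 6, 3 tested genes on each side. TBX18, a T-box transcription factor gene whose start lies at -762.2 kb from that of NT5E, fell (log2 fold change -0.83, SE 0.117, adjusted p = 4.93e-05 from edgeR). SYNCRIP, an RNA-binding protein gene 158.2 kb after it, had a log2 fold change of -0.19 (SE 0.0513, adjusted p = 0.013), a call that was lost with the trend with abundance removed and without knockdown replicate 1. SNX14, the nearest tested gene at 55.9 kb, was not called (-0.02, SE 0.0701), nor were SNHG5 (-0.06), CEP162 (0.08) and LINC01611 (0.23).

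The 5 genes whose pattern over the 6 libraries was most like that of NT5E were ANKRD1, NR2F1, CTGF, ITGB8 and SEMA5A. Likeness was the root mean square difference of log2 CPM over the 6 libraries, each gene taken relative to its own mean. It was 0.0549 for ANKRD1, an ankyrin repeat protein gene, which went from 249.5 ± 4.11 to 82.6 ± 2.15 CPM (SD, n = 3). For NR2F1, a nuclear receptor, the difference was 0.101, and for CTGF, a secreted matrix-associated protein, it was 0.103. ITGB8, an integrin subunit, and SEMA5A, a semaphorin, both had 0.125. Their log2 fold changes lay between -1.63 for CTGF and -1.39 for ITGB8, and most of the likeness comes from the difference between the groups that chose NT5E.

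Other genes around the pathway were counted by role. Of 161 listed purine genes that are no members, 130 were tested, 24 rose and 23 fell, or 36.2% called beside 25.2% of all tested genes. The lists were chosen with earlier results of these data known, so nothing is read from this share or from the shares by role. Of 3 tested nucleoside transporters, SLC29A4, which also carries monoamines, rose from 11.5 ± 0.514 to 18.3 ± 0.937 CPM (SD, n = 3, log2 fold change 0.67, SE 0.0917), and SLC29A2, the transporter most like SLC29A1, fell by 0.28 (SE 0.0699) on the log2 scale. Among 12 tested genes for ATP release, PANX1, a channel for ATP, fell (log2 fold change -0.43, SE 0.0635), and the connexins GJB1 (0.46, SE 0.0587) and GJB2 (0.27, SE 0.059) rose. ANKH, another exporter, was called at 0.20 but lost the call in 4 of 12 alternatives. VDAC1, the most highly expressed of them, was not called (0.02, SE 0.0484). Of 5 tested P2X receptors, which are ion channels opened by ATP, P2RX6 rose by 0.92 (SE 0.163) and P2RX7 by 0.85 (SE 0.174) on the log2 scale. P2RX4 was called lower (-0.24) and P2RX5 higher (0.26), but P2RX4 lost the call in 3 and P2RX5 in 9 of 12 alternatives, and P2RX5 shares 41.6% of its exonic bases with a readthrough gene. None of the 3 tested P2Y receptors was called by edgeR, all with adjusted p of at least 0.826.

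**Figure D2:**
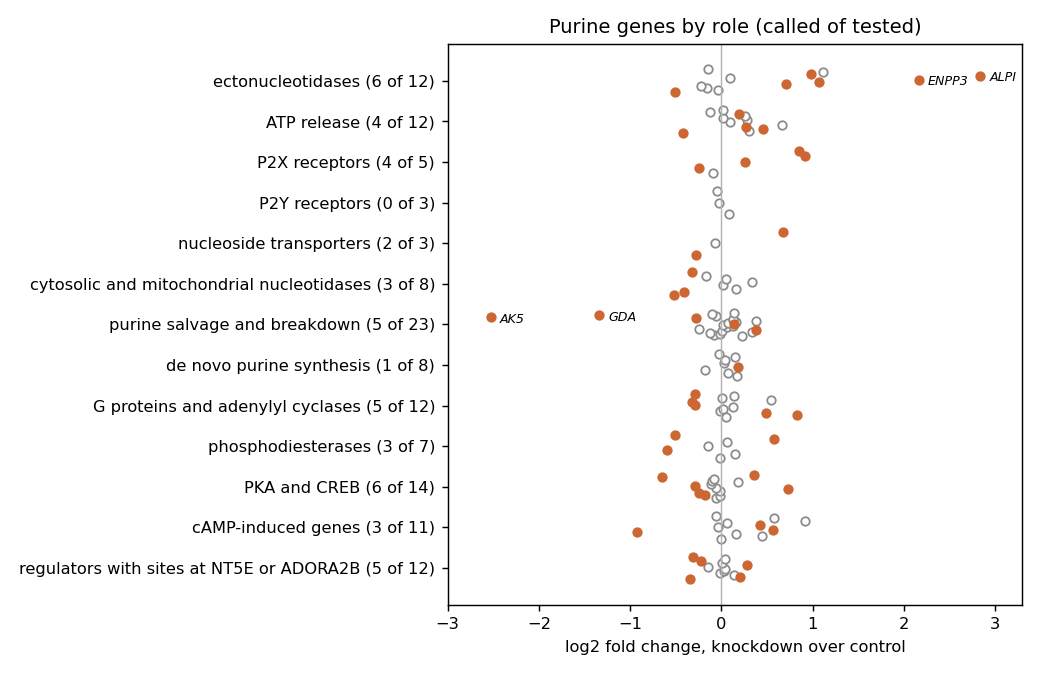
Log2 fold change of each tested purine gene that is no member, by role (filled circles for adjusted p under 0.05, open circles otherwise). Brackets give the number called of the number tested, such as 6 of 12 for the list labelled ectonucleotidases. That list also holds enzymes inside the cell, such as ENTPD4. AK5 at -2.52 and ALPI at 2.84 lie at the ends.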

How the data were processed

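The authors deposited 1 table of unnormalized counts for every gene, of reads or fragments, for 3 control and 3 CNOT7 knockdown libraries. Per the labels, RNA was isolated with TRIzol and libraries were made with a NEBNext Ultra RNA kit. The submitters' processing notes list CASAVA 1.8, fastp, HISAT2 2.0.5, featureCounts 1.5.0-p3, DESeq2 1.20.0 and the build GRCh38. The strand setting and filters are not given in the sources used here. All 58735 genes had the start and end of GENCODE release 29. Library totals ranged from 23788451 to 29104872, and precision is given by the standard errors. No library was a copy of another.

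Counts were filtered with filterByExpr (17574 genes left), normalized with TMM and tested with edgeR 4.0.16 (glmQLFit, glmQLFTest) in R 4.3.3, with no replicate term. P-values were adjusted after Benjamini and Hochberg over all tested genes (threshold 0.05), and each SE was taken as the size of the log2 fold change over the root of the F statistic. The 10 members and the gene lists were chosen with earlier results of these data known. The genes named were the members, CNOT7, in each role the 2 largest called changes in each direction and the tested gene with the highest CPM, not corrected for length, the 3 nearest tested genes on each side of NT5E, and the 5 genes most like it (log2 CPM, prior count 2). The other called genes named (ENTPD8, ENPP1, ALPP, ANKH, P2RX5 and, in the closing section, AK4, NT5DC3, ADCY9 and YAP1) were added after their values were seen. Of 166 listed symbols, 5 were not matched in the table. Promoter sequences are from RefSeq on GRCh38.p14, of which no coordinate was converted.

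Alternatives were DESeq2 1.42.0, RLE factors, no filter, a replicate block, a minimum of 10 counts in all libraries, cyclic loess offsets (limma 3.58.1), and each library left out. The fits were tested on simulated data in which 200 genes were changed. That is far fewer than were called here, so the test does not vouch for single calls. The result of 1 marker gene is not reported here. Tables and plots were made with Python 3.11.15, pandas 2.3.3, numpy 2.4.6, scipy 1.17.1 and matplotlib 3.10.9.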

Additional observations from a re-analysis of the deposited data

How the results depend on the processing

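The log2 fold change of NT5E lay between -1.57 and -1.48 over the 12 alternatives, and that of CNOT7 between -2.13 and -1.99 with its call kept. For the other tested members each alternative moved the value by less than the spread between replicates. Of the 47 called purine genes, 35 kept the call in every alternative in which they were tested, 12 lost it in at least 1, and 0 changed direction with a call. For ALPI and ENPP3, which passed the main filter only through the knockdown libraries, keeping the call adds no support. The number of purine genes called lower stayed between 19 and 31 (23 as reported). The number called higher was 24 as reported, 18 to 24 with 1 library left out and 40 with the replicate block. Over all genes, the number called lower was 2095 as reported and 1367 to 2219 with 1 library left out, the lowest without control replicate 3, and the number called higher was 2329 and 1626 to 2323. With the replicate block these were 3306 and 3202. The deviations of same-numbered libraries correlated with r = 0.0228, 0.153 and -0.0153. The value of 0.153, for replicate 2, was the highest of all pairs of a control and a knockdown library. Control replicate 1 correlated best with knockdown replicate 3 (r = 0.132). These values do not settle whether the numbers are pairs, and the main fit did not take them as pairs. The median log2 fold change of all tested genes stayed between -0.011 and 0.014. The words found in the members' promoter windows, counted once per window and word, were 22 on both strands and 17 on the forward strand alone. ADORA2A and DPP4 were limited by depth.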

Other observations

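The purine genes that act inside the cell were counted by list. Of 23 tested genes for purine salvage and breakdown, 2 were called higher and 3 lower by edgeR, or 21.7% beside 25.2% of all tested genes. AK5, an adenylate kinase known from the brain, fell from 67, 59 and 50 counts to 13, 12 and 10 counts (log2 fold change -2.52, SE 0.279, adjusted p = 4.14e-06). GDA, which deaminates guanine, fell from 32.5 ± 1.99 to 12.9 ± 1.41 CPM (SD, n = 3, log2 fold change -1.34, SE 0.0925). AK4 was the third gene to fall (-0.28, SE 0.0544). ADSSL1 was called higher (0.38, SE 0.105) but not without control replicate 3 or knockdown replicate 3, and AHCY, which releases adenosine from S-adenosylhomocysteine, was called at 0.14 but lost the call in 8 of 12 alternatives. Among 8 tested genes of de novo purine synthesis, PAICS alone was called (12.5%), at 0.18, and it lost the call in 3 alternatives. Nothing is read from these shares, since the lists were chosen with earlier results of these data known. Of 8 tested cytosolic and mitochondrial nucleotidases and their relatives, 3 were called lower and 0 higher by edgeR. That is 37.5% called beside 25.2% of all tested genes, of which 11.9% were called lower and 13.3% higher. The called genes were NT5C (-0.51, SE 0.128), NT5C2 (-0.41, SE 0.0775) and NT5DC3 (-0.33), the last not without control replicate 3. Of the exonic bases of NT5C, 60.7% lie opposite another gene, and of those of NT5C2 36.7%. NT5DC2 was at -0.16 (SE 0.0651) and was not called.

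Downstream of the adenosine receptors, GNAS, the G protein subunit that activates adenylyl cyclase and the most highly expressed of its list, was not called (log2 fold change 0.05, SE 0.0483), although it was called higher with the trend with abundance removed (0.13). Its relative GNAL rose from 38.0 ± 1.12 to 67.3 ± 1.96 CPM (SD, n = 3, log2 fold change 0.82, SE 0.0638, adjusted p = 5.89e-08 from edgeR), and GNAI1, of the inhibitory class, rose by 0.49 (SE 0.0818) on the log2 scale. GNA11 was called lower (-0.29) but not without control replicate 3. The adenylyl cyclases ADCY3 (-0.32, SE 0.0544) and ADCY9 (-0.29, SE 0.0668) fell. PDE4D, the cyclic AMP phosphodiesterase with the highest level, fell from 525.6 ± 31.8 to 348.0 ± 19.9 CPM (SD, n = 3, log2 fold change -0.59, SE 0.0576), PDE10A fell by 0.51 (SE 0.107) and PDE8B rose by 0.58 (SE 0.149) on the log2 scale. Exonic bases are shared with another gene for PDE8B (41.6%, same strand), GNAL (28.1%, other strand) and ADCY3 (26%, other strand). RAPGEF3, an exchange factor opened by cyclic AMP, fell (-0.65, SE 0.0702), as did the CREB relative ATF1 (-0.28), while the PKA subunit PRKAR2B rose (0.73, SE 0.163). RAPGEF4 was called at 0.36 but lost the call in 9 of 12 alternatives, and PRKAR1A, the most highly expressed PKA subunit of the list, was called at -0.18 and lost it in 5. G proteins and adenylyl cyclases had 41.7% called, beside 25.2% of all tested genes. Phosphodiesterases had 42.9% called, as did the list of PKA and CREB genes. Nothing is read from these shares, since the lists were chosen with earlier results of these data known.

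Of 11 tested genes known to respond to cyclic AMP, PER1 (0.56, SE 0.0921) and FOS (0.42, SE 0.0611) rose, 1 was called lower and the remaining 8 were not called, among them ICAM1, the most highly expressed (-0.06, SE 0.0601). The called-lower gene, SIK1, had 215, 165 and 70 counts in the control and 85, 83 and 106 in the knockdown libraries, and it lost the call with DESeq2 and without control replicate 1 or knockdown replicate 1. Its value moved from -0.62 without control replicate 1 to -1.28 without control replicate 3. It has a near-identical copy, SIK1B, between which reads can be split wrongly. The share called in this list was 27.3%, near the 25.2% of all tested genes. Among 12 regulators or cofactors listed for sites at NT5E or ADORA2B, HIF1A (-0.35, SE 0.072), TEAD4 (-0.31, SE 0.0789) and YAP1 (-0.22, SE 0.0521) fell and EPAS1 (0.20, SE 0.0468) and STAT3 (0.28, SE 0.0582) rose. That is 41.7% called beside 25.2% of all tested genes, and nothing is read from this share. CTNNB1, the most highly expressed of them, was at 0.03 (SE 0.0495) and was not called.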
